A study of Mus musculus with 4 samples.

Results

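The 10 genes described here encode the 4 kinases that phosphorylate eIF2alpha, eIF2alpha itself, the 2 subunits that direct protein phosphatase 1 to it, both GCN2 partners and the initiator tRNA factor Eif2a. They were taken by name from the arrays, where 21 of the 56304 probes used and 10 of the 36918 gene names belong to them. All 10 members passed the filter on dim probes, in each case with a probe well above background on all 4 arrays. The files write Gcn1l1 for the gene now called Gcn1. RefSeq also lists Eif2a as an older name of Eif2s1. The probe named Eif2a carries the accession of the separate gene Eif2a, whose protein is not a part of eIF2, so it is no kinase, phosphatase or GCN2 partner.

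The factor eIF2 brings the initiator tRNA to the ribosome. When its alpha subunit is phosphorylated, it binds and holds back its exchange factor eIF2B, so that most translation slows while mRNAs with regulatory upstream open reading frames are translated better. Each kinase senses a different stress: HRI (Eif2ak1) lack of heme or oxidative stress, PKR (Eif2ak2) double-stranded RNA, PERK (Eif2ak3) unfolded proteins in the endoplasmic reticulum and GCN2 (Eif2ak4) uncharged tRNA and stalled ribosomes. Phosphatase 1 reverses the mark through the inducible subunit GADD34 (Ppp1r15a) or the constitutive subunit CReP (Ppp1r15b). GCN1 is needed to activate GCN2, and IMPACT competes with GCN2 for GCN1. These arrays measure mRNA, not phosphorylation.

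The data are 4 single-colour arrays of mouse pancreatic cancer cells of the C57BL/6 strain, from cells named K5 and K6, called lines below. Each line gave 1 control sample (DMSO) and 1 sample treated for 24 hours with halofuginone at 100 nM, an inhibitor of prolyl-tRNA synthetase, whose block leaves tRNA for proline uncharged. The series title concerns Nrf2 depletion and gemcitabine, and the design compares treated with control cells in each line. The sources used here give neither the origin of K5 and K6 nor whether separate cultures were used. The p-values therefore measure only how these 4 samples spread, each gene's own spread pooled with that of all tested genes. This spread may be technical. The design text writes F for the treated samples where the titles have H.

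Levels below are log2 processed signals, each array centred on its 75th percentile, read at the gene's brightest probe, and different genes are not compared by level. Change is halofuginone minus control on that scale. Past the threshold means an adjusted p under 0.05 in limma over 19093 tested genes, with the line as a block, and called genes are higher or lower by that rule. On the arrays 47.2% to 54.0% of spots were well above background, with both halofuginone arrays above both control arrays, and 0 spots were saturated. The epithelial and ductal markers were well above background on all 4 arrays, 8 of 8, with a summed signal of 702 to 976 in units of each array's 75th percentile. The acinar markers Cpa1 and Ptf1a, endothelial Cdh5 and fibroblast Pdgfrb were well above background on none. The immune marker sum over Ptprc, Cd14 and Cd68 was 19.9 and 21.7 in controls and 4.07 and 6.86 after halofuginone. Most of the control sum was Cd14, at log2 levels of 4.26 in K5 and 4.03 in K6. Ptprc went the other way, by 1.04 in K5 and 0.17 in K6, and was not past the threshold. The part of this sum in the results below was not tested. The fibroblast and stellate sum, over 4 of 4 markers, was 15.8 and 17.5 in controls and 9.25 and 11.6 after halofuginone. Nearly all of it was Acta2, whose change of -0.70 was not past the threshold (limma adjusted p = 0.15). Pdgfrb, Dcn and Col1a1 were too dim to be tested. The acinar sum, over 3 of 4, was 2.12 and 3.51 against 0.37 and 0.65, and nearly all of it was Cela1. The endothelial sum was at most 0.38 on any array. Among these markers Muc1, Cd14, Cd68 and Cela1 were past the threshold as lower and Kdr as higher. The part of these lists was not tested either.

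After halofuginone, Ppp1r15a, the stress-induced phosphatase subunit, rose 14.1-fold, and it was the only one of the 10 members past the threshold. Across all tested genes 3.88% were called higher and 5.08% lower (8.96% in all), so 1 of 10 is near the background. Eif2s1 and Ppp1r15b lay just outside the threshold, with changes of 1.43 and 1.84 on the log2 scale. The 4 kinases had gene-level changes from -1.19 to 0.06, and none of them passed. At an unadjusted p under 0.05 there were 7 of 10 members, against 34.1% of all tested genes. In bulk RNA, fewer cells of a kind and less RNA per cell cannot be told apart. In both lines 6 members had positive changes and 3 negative ones, against 38.7% and 38.0% of all tested genes. The median change of the 10 members was 0.42, against 0.01 over all tested genes.

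**Figure D1:**
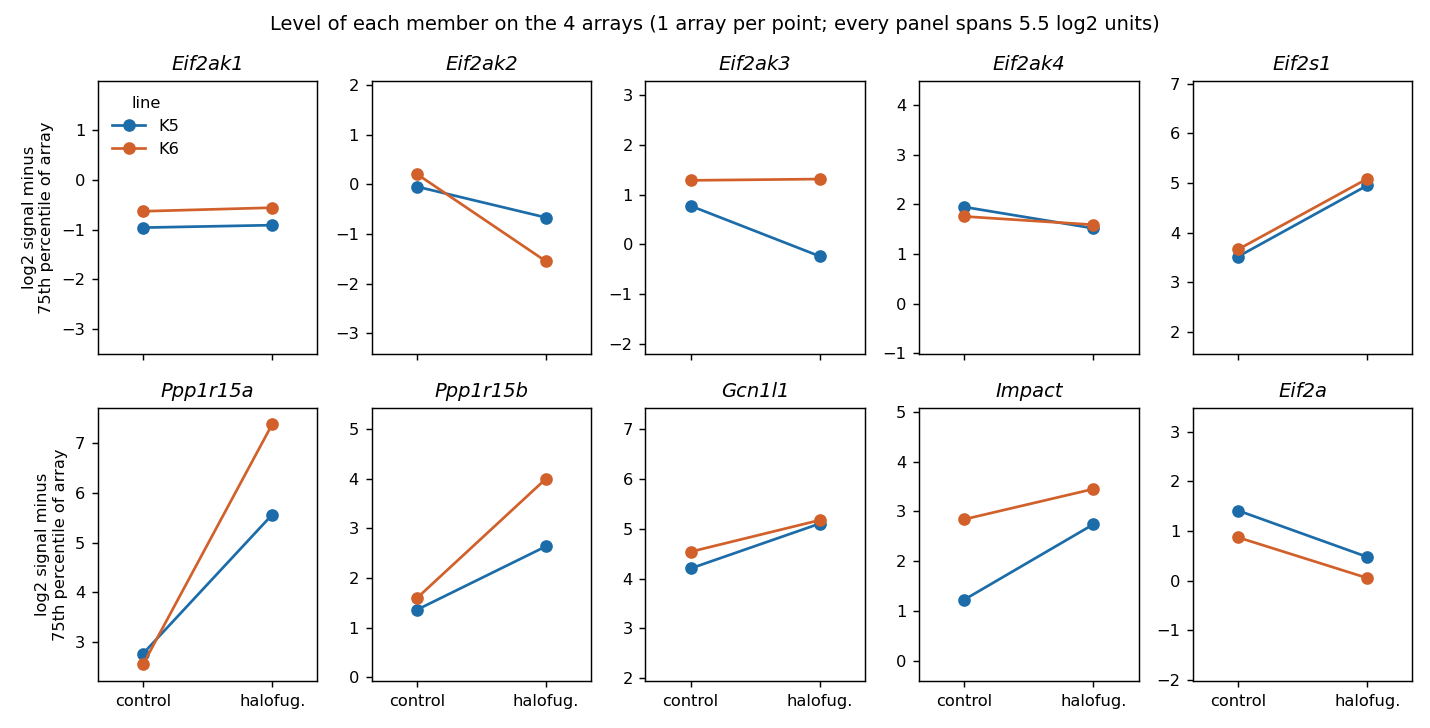
Level of each of the 10 members on the 4 arrays, as log2 signal minus the 75th percentile of the array (y axis, each panel spanning the same number of log2 units) in control and halofuginone samples (x axis); each point is 1 array, and lines join the arrays of K5 (blue) and of K6 (orange). Ppp1r15a goes from 2.76 to 5.56 in K5 and from 2.55 to 7.38 in K6, and the Eif2ak1 points stay within 0.07 of their controls.

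Ppp1r15a encodes GADD34, which recruits phosphatase 1 to eIF2alpha. In K5 the control read 2.76 and the halofuginone sample 5.56, and in K6 they read 2.55 and 7.38. Both halofuginone values lay above both control values, and the halofuginone K6 array was the highest. The change was 3.81 (SE 0.57, 95% confidence interval 2.22 to 5.41, 2 lines; limma adjusted p = 0.045). Within lines it was 6.95-fold in K5 and 28.5-fold in K6, and with 1 array per line and condition the difference between lines was not tested. By size of change, Ppp1r15a ranked 240 of the 19093 tested genes. Its only probe lies on mm9 chromosome 7 from 52778320 to 52778379, at base 2240 of NM_008654. Whether this and the other probes lie in coding sequence or in a UTR was not determined here. The call was lost without the line block (adjusted p = 0.097), without a filter on dim probes (0.11), with each probe tested on its own (0.051) and with scaling on probes detected on all 4 arrays (0.062). It held in the other 9 of 13 alternatives. Over all 13 the change ran from 3.69 to 3.87 and the limma adjusted p from 3.51e-05 to 0.11.

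The promoter of Ppp1r15a is shown because this gene alone passed and because its sequence holds the full cAMP response element, the 8-letter palindrome that binds CREB and ATF proteins. Promoter sequences are RefSeq's, from 250 bases before to 50 after the start site, and they were found for 8 of the 10 members, 9 promoters in all. Capitals mark the motifs searched on both strands, TGACGTCA, its core TGACGT, TGATGNAA (the response element of C/EBP and ATF pairs) and the interferon-stimulated response element. The Eif2s1, Eif2ak2 and downstream Eif2ak4 promoters are set beside it as the substrate, the kinase of lowest change and the kinase that senses uncharged tRNA.
Ppp1r15a promoter, GRCm38.p6 chr7:45526219-45526518, minus strand: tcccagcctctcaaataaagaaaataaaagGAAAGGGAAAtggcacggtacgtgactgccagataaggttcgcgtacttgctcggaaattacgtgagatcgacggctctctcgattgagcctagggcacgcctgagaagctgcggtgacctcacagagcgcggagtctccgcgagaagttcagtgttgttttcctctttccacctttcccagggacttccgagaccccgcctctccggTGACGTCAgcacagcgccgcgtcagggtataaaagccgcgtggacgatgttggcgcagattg
Eif2s1 promoter, GRCm38.p6 chr12:78861822-78862121, plus strand: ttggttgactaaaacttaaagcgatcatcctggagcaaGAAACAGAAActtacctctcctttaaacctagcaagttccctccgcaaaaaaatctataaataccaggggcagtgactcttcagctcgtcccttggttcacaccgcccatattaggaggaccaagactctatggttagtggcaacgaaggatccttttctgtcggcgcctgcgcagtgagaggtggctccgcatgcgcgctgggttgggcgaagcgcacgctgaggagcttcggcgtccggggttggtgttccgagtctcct
Eif2ak2 promoter, GRCm38.p6 chr17:78882523-78882822, minus strand: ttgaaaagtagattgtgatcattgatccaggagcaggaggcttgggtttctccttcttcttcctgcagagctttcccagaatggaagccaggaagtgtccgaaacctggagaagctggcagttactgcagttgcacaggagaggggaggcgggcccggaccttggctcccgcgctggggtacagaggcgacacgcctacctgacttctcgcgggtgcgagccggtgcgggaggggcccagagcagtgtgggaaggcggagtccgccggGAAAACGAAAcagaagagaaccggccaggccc
Eif2ak4 promoter, GRCm38.p6 chr2:118388862-118389161, plus strand: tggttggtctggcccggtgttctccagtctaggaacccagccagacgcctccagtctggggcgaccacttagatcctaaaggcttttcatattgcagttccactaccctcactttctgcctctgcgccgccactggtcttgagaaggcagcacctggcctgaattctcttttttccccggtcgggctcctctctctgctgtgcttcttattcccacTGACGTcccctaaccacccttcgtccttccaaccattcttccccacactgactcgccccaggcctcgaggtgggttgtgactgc

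TGACGTCA was found in the promoter of Ppp1r15a, from base -12 to base -5 before the start site, and in 1.79% of all 32851 promoters in the table. Among the 9 member promoters it was found in that of Ppp1r15a alone. Ppp1r15b and Impact had no promoter sequence to search. Its core TGACGT, which lies within it and is counted again, was also found from -34 to -29 of the downstream Eif2ak4 start and from -48 to -43 of Eif2a, and in 7.51% of all promoters. The interferon-stimulated response element was found in the promoters of Ppp1r15a, Eif2s1 and, from base 19 to 28 after the start, Eif2ak2, and in 3.44% of all promoters. TGATGNAA was in 0 of 9 member promoters and in 3.97% of all. A match is a description of these letters, not a site of binding.

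Ppp1r15b encodes CReP, the subunit that keeps eIF2alpha dephosphorylated in unstressed cells. The K5 pair read 1.36 in control and 2.64 in halofuginone, the K6 pair 1.59 and 3.996. As for Ppp1r15a, both halofuginone values lay above both controls, and K6 had the larger change of the 2 lines, 5.29-fold against 2.42-fold, a difference that was not tested. The change over both lines was 1.84 (SE 0.38, interval 0.78 to 2.90) and was not past the threshold (limma adjusted p = 0.062). The probe lies on mm9 chromosome 1 from 135035870 to 135035929, at base 5080 of NM_133819. Ppp1r15b was past the threshold in 4 of 13 alternatives, with adjusted p from 0.0011 to 0.16 over all.

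Eif2s1 encodes eIF2alpha, the substrate of all 4 kinases. Control and halofuginone levels were 3.52 and 4.95 in K5 and 3.66 and 5.09 in K6. The 2 lines lay close together in each condition, and the groups did not overlap. The changes were 1.432 in K5 and 1.422 in K6, or 2.69-fold over both (SE 0.26 on the log2 scale, interval 0.72 to 2.14), with a limma adjusted p = 0.053. As the changes in K5 and K6 nearly match, this SE comes mostly from the spread that limma pools over all tested genes. The probe lies on mm9 chromosome 12 from 79986224 to 79986283, at base 1378 of NM_026114. Eif2s1 was past the threshold in 6 of 13 alternatives, with adjusted p from 0.0019 to 0.10.

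**Figure D2:**
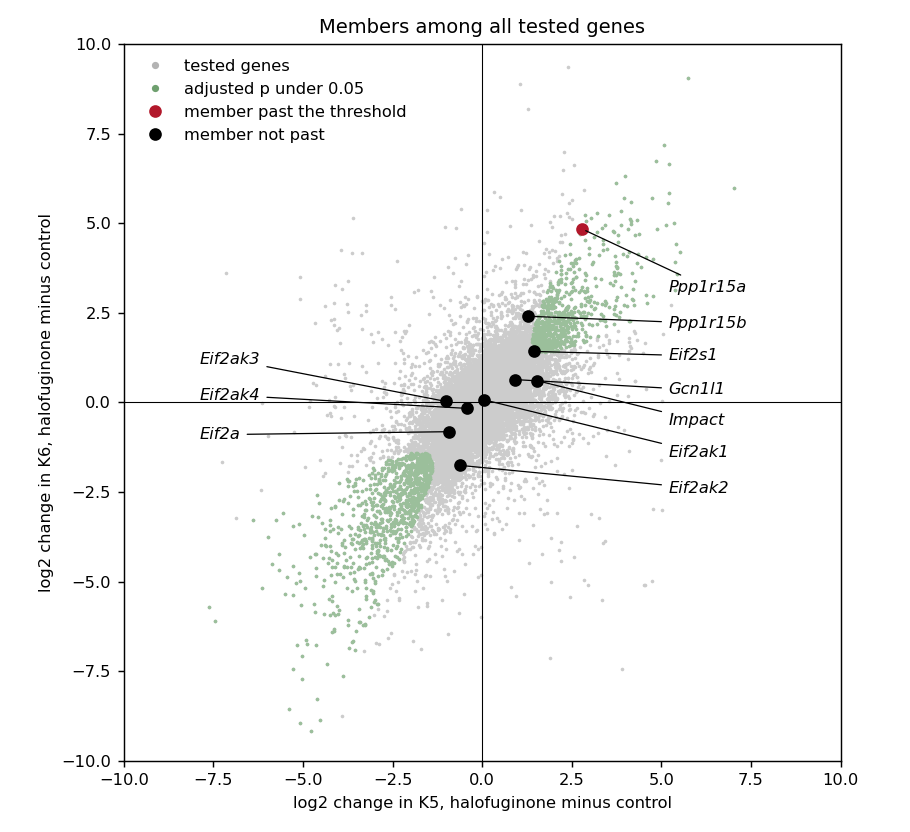
Log2 change in K5 (x axis) against log2 change in K6 (y axis) for the tested genes (grey), those with limma adjusted p under 0.05 (green) and the 10 members (labelled; red where past the threshold, otherwise black). Ppp1r15a sits at 2.80 and 4.83 among the called genes, and Ppp1r15b (1.28 and 2.40) and Eif2s1 lie beside the edge of the called genes.

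The mRNAs of the kinases showed no gene-level change past the threshold. For GCN2, the kinase that senses uncharged tRNA, the Eif2ak4 level in K5 was 1.94 without and 1.51 with halofuginone, and in K6 it was 1.75 and 1.59. The halofuginone values were both the lower ones, by small amounts. The change was -0.30 (SE 0.26, interval -1.03 to 0.44; limma adjusted p = 0.47), so the interval holds both a 2-fold fall and no change. This probe lies on mm9 chromosome 2 from 118300892 to 118300951, at base 5134 of NM_013719.

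The other 3 Eif2ak4 probes read as follows. A probe for the transcript ENSMUST00000110877, 47.0 kb away at 118253890 to 118253949, was not well above background on either control array and was on both halofuginone arrays. Its level went from -5.10 to -0.70 in K5 and from -4.95 to -3.56 in K6. Against the detection limits of the control arrays it was at least 4.22-fold higher over both lines, at least 11.1-fold in K5 and at least 1.61-fold in K6. With each probe tested on its own it was not past the threshold (limma adjusted p = 0.10, where 4.6% of 28262 probes were called). A probe for ENSMUST00000110869, 22.9 kb away, had a change of 0.96 in K5 and -1.11 in K6. A probe for AF193344, with no position in the files, had -0.50 and 0.07, and its mean of -0.22 (SE 0.30) was close to that of the gene-level probe. The mean over all 4 probes gave an Eif2ak4 change of 0.58 (limma adjusted p = 0.35). Its positive sign rests on the ENSMUST00000110877 probe alone, with 2.89 as read from control values not well above background. The 3 probes well above background on all 4 arrays had mean changes of -0.30, -0.08 and -0.22.

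PKR, encoded by Eif2ak2, is the double-stranded RNA sensor and an interferon-induced gene. In K5 the control read -0.05 and the halofuginone sample -0.67, and in K6 they read 0.21 and -1.55. Both halofuginone values lay below both controls, and the K6 halofuginone array was the lowest. The change of -1.19 (SE 0.38, interval -2.26 to -0.12) was the lowest of the members and was not past the threshold (limma adjusted p = 0.12, and 0.020 to 0.22 over the alternatives, of which 2 of 13 passed). Its probe lies on mm9 chromosome 17 from 79253868 to 79253927, at base 2288 of NM_011163.

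PERK, encoded by Eif2ak3, is the kinase in the endoplasmic reticulum membrane. The K5 pair read 0.78 in control and -0.24 in halofuginone, the K6 pair 1.29 and 1.32. K5 was 2.02-fold lower after halofuginone and K6 differed by 0.03, so the groups overlapped. The change was -0.49 (SE 0.37, interval -1.51 to 0.52; limma adjusted p = 0.40). A second Eif2ak3 probe, for the cDNA AK010397 and 40.4 kb from the first, read -3.55 and -3.40 in K5 (control, then halofuginone) and -3.24 and -1.08 in K6. There K6 was 4.47-fold higher and K5 1.11-fold higher, and the mean over both probes gave a change of 0.33, opposite in sign to the main value (adjusted p = 0.65). The probes lie on mm9 chromosome 6, the brighter from 70855152 to 70855211 and the other from 70814739 to 70814798.

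HRI, encoded by Eif2ak1, had the smallest change of the 10 members. Control and halofuginone levels were -0.96 and -0.91 in K5 and -0.63 and -0.56 in K6. Each line kept its own level, and the treatment difference was smaller than that between lines. The change was 0.06 (SE 0.26, interval -0.65 to 0.77; limma adjusted p = 0.89), and it was -0.07 with the mean over probes and -0.06 with scaling on probes detected on all 4 arrays. Of 4 Eif2ak1 probes, that at base 568 of NM_013557 read -0.47 in K5 and -0.33 in K6, that for ENSMUST00000100487 0.11 and 0.15, and the fourth, for ENSMUST00000154767, was well above background on no array. The gene-level probe lies on mm9 chromosome 5 from 144662840 to 144662899.

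**Figure D3:**
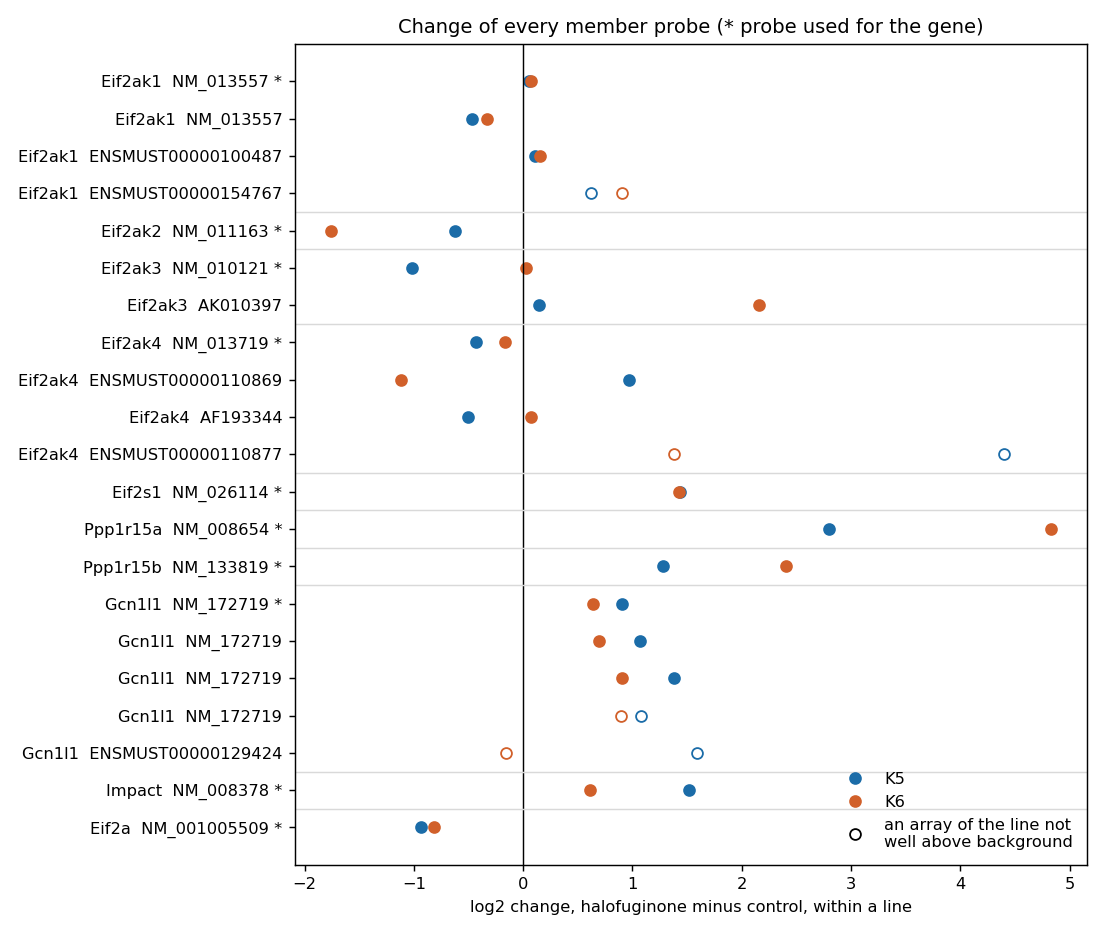
Log2 change after halofuginone (x axis) of each of the 21 member probes (rows, by gene and transcript; * marks the probe used for the gene) in K5 (blue) and K6 (orange); open points, whose size is not a measured change, have an array of that line that is not well above background. The filled Gcn1l1 points of NM_172719 lie between 0.64 and 1.38, and the filled Eif2ak4 points between -1.11 and 0.96.

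The GCN2 partners both had positive changes. GCN1, which carries the signal of stalled ribosomes to GCN2, is read by 5 Gcn1l1 probes. In K5 the control read 4.20 and the halofuginone sample 5.11, and in K6 they read 4.54 and 5.17. Both halofuginone values lay above both controls. The change was 0.77 (SE 0.26, interval 0.03 to 1.504) and was not past the threshold (limma adjusted p = 0.14). The 3 Gcn1l1 probes well above background on all 4 arrays, all for NM_172719, gave positive changes in both lines, from 0.64 to 1.38, and with each probe tested on its own their adjusted p ran from 0.089 to 0.14. The dimmest probe of this transcript was not well above background on either control array, and its signal after halofuginone lay under the detection limit of the controls, so no direction or bound is given for it. The 3 probes share a transcript and the same 4 arrays and so are not replicates. The fifth, for ENSMUST00000129424, was well above background on the halofuginone K5 array alone. The brightest probe lies on mm9 chromosome 5 from 116072600 to 116072659, at base 8482 of the transcript.

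Impact encodes the protein that keeps GCN1 from GCN2. The K5 pair read 1.23 in control and 2.74 in halofuginone, the K6 pair 2.84 and 3.45. Halofuginone K5 lay just below control K6, so the groups overlapped although each line had a higher value after treatment, by 2.86-fold in K5 and 1.53-fold in K6. The change was 1.06 (SE 0.34, interval 0.11 to 2.02; limma adjusted p = 0.12). Its probe lies on mm9 chromosome 18 from 13151172 to 13151231.

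Eif2a encodes a factor that can deliver initiator tRNA without eIF2. Control and halofuginone levels were 1.41 and 0.48 in K5 and 0.87 and 0.05 in K6. Both halofuginone values lay below both controls. The change was -0.88 (SE 0.26, interval -1.59 to -0.16) and was not past the threshold (limma adjusted p = 0.11). The probe lies on mm9 chromosome 3 from 58352658 to 58352717, at base 1392 of NM_001005509.

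Over the members, both halofuginone values lay above both controls in 4, Eif2s1, Ppp1r15a, Ppp1r15b and Gcn1l1, against 30% of all tested genes. They lay below both in 3, Eif2ak2, Eif2ak4 and Eif2a, against 28.6%. With 10 members, 4 and 3 are near these shares. At least 2-fold lower in both lines were 0 members, against 9.62%. At least 2-fold higher in both lines were 3, the phosphatase subunits and Eif2s1, against 8.59% of all tested genes. Within K5, 4 members were at least 2-fold higher (14.1% of all) and 1 at least 2-fold lower (14.9%), and within K6, 3 and 1 (16.4% each).

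Between lines, with treatment in the fit, 0 of 10 members were past the threshold for K6 against K5 in limma, where 0.173% of all tested genes were. At an unadjusted p under 0.05 there were 2, against 15.5% of all. Impact had a K6 minus K5 difference of 1.16 (SE 0.34, limma adjusted p = 0.26) and Eif2ak3 one of 1.03 (SE 0.37, adjusted p = 0.32). For Impact the distance between lines was larger in controls, 1.62, than after halofuginone, 0.71, and for Eif2ak3 it was smaller, 0.51 against 1.55. These differences between conditions were not tested. Both K6 values lay above both K5 values in 3 members, Eif2ak1, Eif2ak3 and Impact, and below in none, where 28.8% of all tested genes had K6 apart from K5 in either direction. Among the other members the line difference ran from -0.48 in Eif2a to 0.80 in Ppp1r15a.

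From the other subunits of eIF2, its exchange factor eIF2B and factors that act on eIF2, 9 genes were tested. Past the threshold were 2 as higher and 0 as lower, against 3.88% and 5.08% of all tested genes. The median change of the 9 was 0.20. Eif2s2, the beta subunit of eIF2, rose by 2.10 (SE 0.28, limma adjusted p = 0.043), from 5.14 and 5.01 in the controls to 7.01 and 7.34. Eif2b3, the gamma subunit of eIF2B, rose by 2.24 (SE 0.27, adjusted p = 0.039), from 0.04 and 0.74 to 2.44 and 2.83. In both genes the 2 treated values lay above the 2 controls. Eif2s3x, the gamma subunit of eIF2, had a change of 0.70 (adjusted p = 0.17) and Eif5, which triggers hydrolysis of GTP by eIF2, one of 0.57 (adjusted p = 0.21). Eif2b4, another subunit of eIF2B, had a negative change in both lines, -0.30 over both (adjusted p = 0.49). Eif2s3y was not among the tested genes.

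Among 15 modulators of the kinases 0 passed in limma, against 8.96% of all tested genes. An unadjusted p under 0.05 was reached by 8, against 34.1% of all. The median change of the modulators was -0.17. Prkra, the protein activator of PKR, had a change of -1.27 (SE 0.26, limma adjusted p = 0.060), with -1.25 in K5 and -1.29 in K6. Zak, the kinase that senses collided ribosomes, had 1.22 (adjusted p = 0.075), and Hsp90aa1, a chaperone of the kinases, 1.19 (adjusted p = 0.077). The list thus held values in both directions. Of the phosphatase partners 0 of 4 passed in limma and 0 had an unadjusted p under 0.05, beside the same shares of all tested genes. Their median change was -0.11. Ppp1cb, a catalytic subunit of phosphatase 1, had 0.75 (adjusted p = 0.16), Nck1, an adaptor that binds eIF2 and phosphatase 1, -0.58 and Ppp1ca, another catalytic subunit, -0.51 (adjusted p = 0.25 for both).

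**Figure D4:**
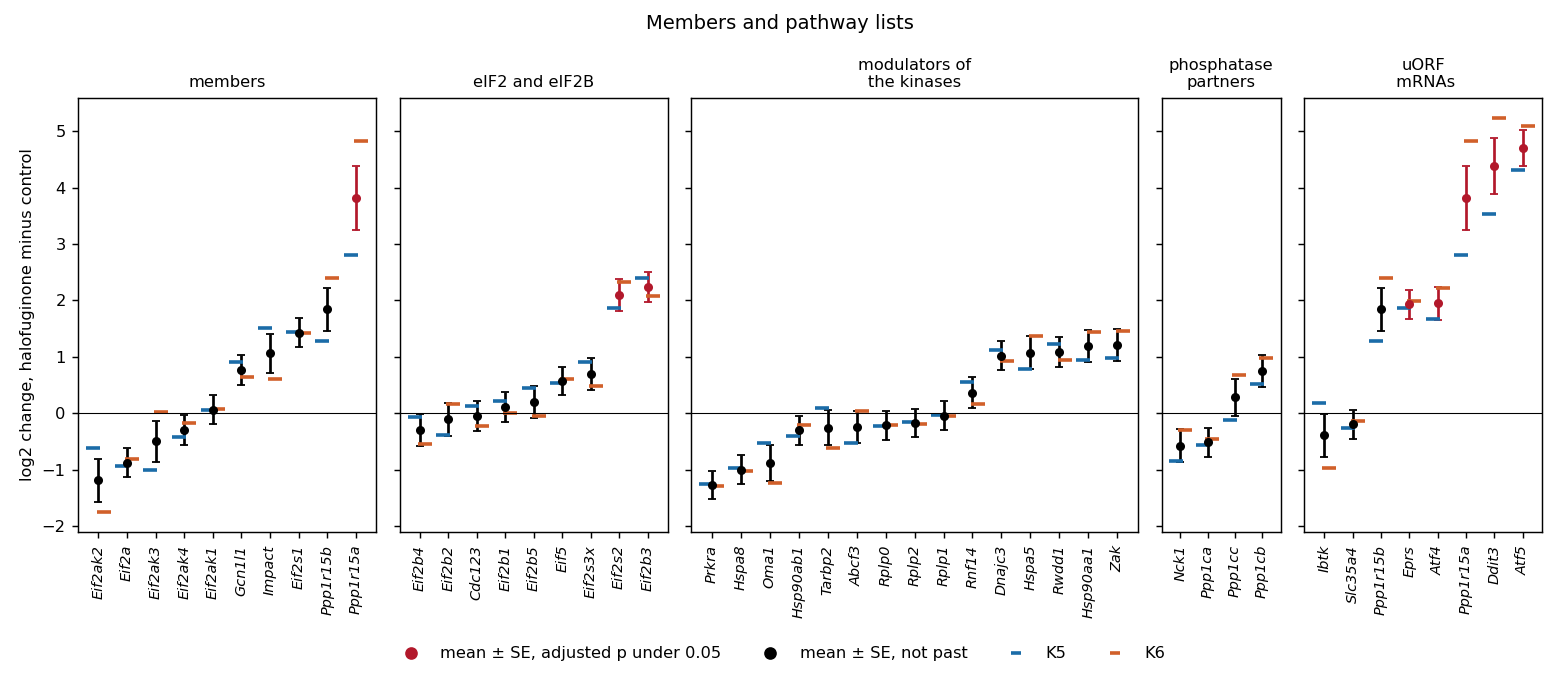
Log2 change after halofuginone (y axis) of the tested genes among the members and in 4 pathway lists (panels; genes on the x axis in order of change): points are means over 2 lines with SE, red where the limma adjusted p is under 0.05, and the dashes give K5 (blue) and K6 (orange). Eif2s2 and Eif2b3 stand at 2.10 and 2.24 above the rest of their list. No modulator or phosphatase partner is red.

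The mRNAs with regulatory upstream open reading frames include both phosphatase subunits. Of 8 tested, 5 were past the threshold as higher and 0 as lower, against 3.88% and 5.08% of all tested genes. The median change of the list was 1.94. Beside Ppp1r15a the called genes were Atf5 at 4.70 (SE 0.32, limma adjusted p = 0.036) and Ddit3 at 4.38 (SE 0.50, adjusted p = 0.039). Atf4 had 1.95 (SE 0.29, adjusted p = 0.045) and Eprs 1.93 (SE 0.26, adjusted p = 0.042). Not past were Ppp1r15b at 1.84, Ibtk at -0.39 (adjusted p = 0.52) and Slc35a4 at -0.20 (adjusted p = 0.62). Ibtk changed by 0.19 in K5 and -0.98 in K6. Atf4 and Atf5 are transcription factors of this response, Ddit3 encodes CHOP, and Eprs carries the synthetase that halofuginone inhibits. Ddit3, like Ppp1r15a, had the larger change in K6, 5.24 against 3.53 in K5. So did the other called genes, Atf5 (5.09 against 4.31), Atf4 (2.23 against 1.67) and Eprs (1.99 against 1.86). The difference between lines was not tested.

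Likeness of pattern was measured as the distance, in log2 units over 4 arrays, between the K5 change, the K6 change and the control difference of the lines, among 15886 genes well above background on all arrays. Nearest to Ppp1r15a was Atf3, a stress-induced transcription factor, at a distance of 0.62, with changes of 2.31 in K5 and 4.69 in K6. Ptgs2, cyclooxygenase 2, was at 0.67 and Hmga2-ps1 also at 0.67. Nearest to Ppp1r15b were AK028508 at 0.07, Ccdc174 at 0.15 and 1700094D03Rik at 0.18. Nearest to Eif2s1 were Naf1 at 0.04, Faf1 at 0.09 and Itsn2 at 0.09. A likeness over 4 arrays is a description only.

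**Figure D5:**
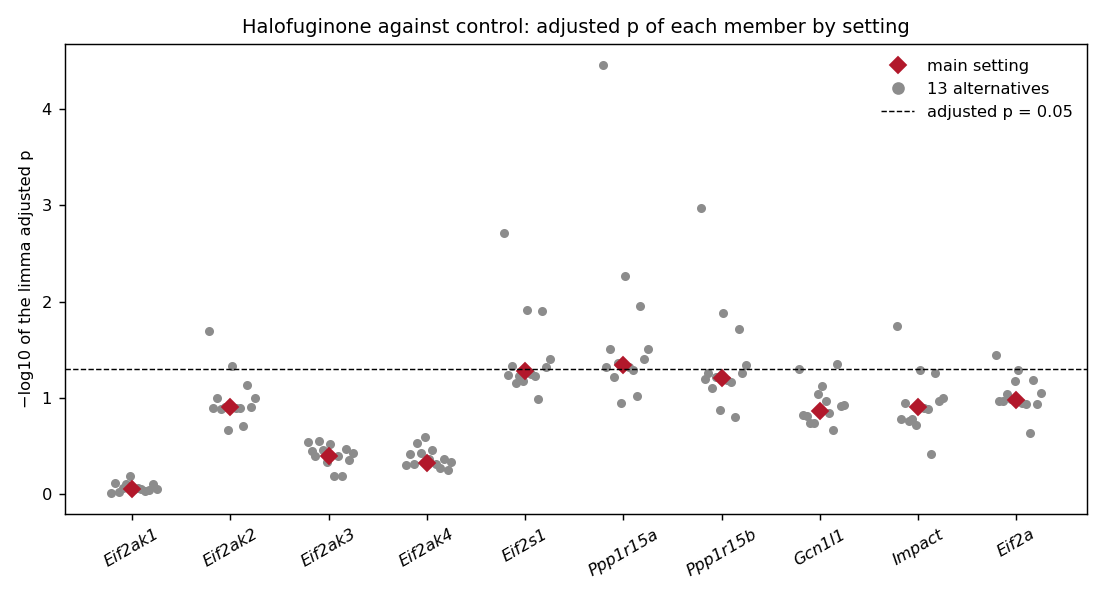
Limma adjusted p of each member for halofuginone against control (y axis, as −log10, with 0.05 as the dashed line) in the main setting (red) and in 13 alternatives (grey), by member (x axis). Ppp1r15a lies above the line in the main setting and in 9 alternatives, Eif2s1 in 6 alternatives, and Eif2ak1, Eif2ak3 and Eif2ak4 in none.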

How the data were processed

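The deposited scanner files hold, per the file headers, spot intensity from Agilent Feature Extraction 10.7.1.1 (the submitters' processing notes name 9.5.1.1) on 1-colour Cy3 arrays, with probe positions on mm9. The processed signal had its background subtracted and spatial trend removed array by array, and is not normalized between arrays. Deposited flags mark other properties of a spot: outlier, saturated and well above background. The authors' deposited value table, an alternative here, has a median intensity of 32.97434 and a mean of 3225.22 in each of its 4 columns. Quantile normalization, another alternative here, would leave columns equal in this way. The step the authors used is not stated in the labels or headers. All 4 arrays lay on 1 slide, so no batch could be tested.

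Control and outlier spots were left out (301 probes lost), spots of a probe averaged, and log2 values centred on the 75th percentile of all spots other than controls. A gene was its probe with the highest mean. Genes with that probe well above background on 2 or more arrays entered a fit with limma 3.58.1 in R 4.3.3, with the line as a block, 1 residual degree of freedom and 2.97 prior ones, and Benjamini-Hochberg adjustment. With 2 samples against 2 a permutation test cannot pass 0.05, so none was used. The numbers 5 and 6 name the same cells, and over genes the line difference in controls correlated with that after halofuginone at r = 0.50. Bounds use each array's lowest signal well above background, from -5.01 to -4.17. Spots of one probe on one array had a median SD of 0.04 on the log2 scale, for 286 probes with at least 5 spots, 276 of them with a log2 level above 1. Dimmer probes varied more, with a median SD of 0.14 at levels from -3 to -1 and 0.16 below -3. The number of arrays limits the precision. The fitting code was tested on simulated data.

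The members, the lists and the tests were chosen with earlier results of these data known. Named are all 10 members and, of each list, the genes past the threshold and up to 3 others of largest change, among probes well above background on all 4 arrays. Likeness was sought for the 3 members of largest change. Markers past the threshold are named by their lists.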

Additional observations from a re-analysis of the deposited data

Results flagged for a closer look

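Some probes had changes of opposite sign in K5 and K6. The difference was not tested for any of them, since each line has 1 array per condition. At the gene-level Eif2ak3 probe of NM_010121 the change was -1.01 in K5 and 0.03 in K6, and K6 minus K5 was 1.04. At the Eif2ak4 probe of ENSMUST00000110869 the changes were 0.96 and -1.11, a difference of -2.08. At the Eif2ak4 probe of AF193344 they were -0.50 and 0.07, a difference of 0.57. The K6 changes of 0.03 and 0.07 at the NM_010121 and AF193344 probes were close to no change.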

How the results depend on the processing

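The alternatives of scaling on averaged probes and raising dim values to the detection limit were chosen after seeing the data. Without the replicate block limma called 0 of the members (4 at an unadjusted p under 0.05) and 0 of all tested genes (4492). Scaling on probes detected on all 4 arrays gave 0 members (5) and 0 genes (6481), and moved the median of all tested genes from 0.01 to -0.115. Without a filter there were 0 members (4) and 0 genes (15052), and with each probe tested on its own 0 members (7) and 1300 of 28262 probes (9505). Normexp gave 7 members and 5428 genes, the filter on all 4 arrays 4 and 4012, the mean-variance trend 4 and 4200. Median centring gave 2 members and 2399 genes, scaling on averaged probes 2 and 2000, and raised dim values 3 and 2438. The main setting gave 1 member and 1710 genes. For K6 against K5, normexp gave 1 member, Impact (limma adjusted p = 0.031), against 0 in the main setting and the other alternatives. Over all tested genes normexp gave 1309 between lines, against 33 in the main setting. Signs turned for Eif2ak1 (-0.063 on detected probes, -0.070 with the mean over probes), Eif2ak3 (0.33) and Eif2ak4 (0.58, both with the mean over probes). The Eif2ak4 turn rests on 1 probe that was not well above background in controls. The other 7 members kept their sign in all 13 alternatives. Beside those named in the report, Gcn1l1 passed in 2 of the 13, Impact in 1 and Eif2a in 1. Leaving out a line leaves 1 array per condition and so a value with no test, which is the change in the other line. The causes of these shifts were not tested, except that fewer or more genes enter with the filters.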
